A study of Mus musculus with 4 samples.

Results

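Oxidative phosphorylation genes were taken by symbol, as every gene starting with mt-Nd, mt-Co, mt-Atp, mt-Cytb, Nduf, Sdh, Uqcr, Cox4, Cox5, Cox6, Cox7, Cox8 or Atp5. This gave 103 of the 13518 genes in the table, of which 13 are encoded in the mitochondrial genome and 90 in the nucleus. The symbol rule also takes in 13 nuclear genes that are not subunits but assembly factors of complexes I and II or the coupling factor-like Atp5s. Single-cell RNA was measured by droplet sequencing in tumours of C57BL/6 mice that carried orthotopic implants of MC38, a mouse colon carcinoma line. The 4 arms were ATT-I at 50 mg/kg daily with anti-PD-1 (the combination), ATT-I alone at 50 mg/kg daily, anti-PD-1 alone, and vehicle. ATT-I is Atractylenolide I, a plant sesquiterpene lactone, and anti-PD-1 is an antibody against an inhibitory receptor of T cells, given 3 times a week for 5 doses. All arms carried the same tumour and were harvested 2 weeks after treatment began, and 5 tumours were pooled into 1 library per arm. The labels name the reference arm vehicle in one place and untreated in another, and it is called vehicle here.

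Oxidative phosphorylation runs electrons from NADH and succinate through complexes I to IV of the inner mitochondrial membrane and uses the resulting proton gradient to make ATP at complex V. Complexes I, III, IV and V are built from subunits of both genomes, while complex II is nuclear only. The mitochondrial messages are cut from long transcripts that a mitochondrial polymerase makes from the mitochondrial DNA. The nuclear ones are made gene by gene. In T cells this machinery is known to be needed for expansion and memory, and its loss has been described in exhausted cells.

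The libraries held 199 combination, 297 ATT-I, 12562 anti-PD-1 and 155 vehicle cells, and 1 cell barcode was shared between libraries. The median cell held 23927 UMIs (unique molecules counted) in the combination, 6828 in ATT-I, 7148 in anti-PD-1 and 16129 in vehicle. Labels name the tissue as MC38-derived tumour and state no sort, yet most cells carried T cell markers. Cd3e, a T cell receptor subunit, had a UMI in 99.0% of combination, 92.3% of ATT-I, 94.7% of anti-PD-1 and 83.9% of vehicle cells, whereas the 4 tumour epithelial markers summed to between 0.0554 and 1.14 UMIs per 10000. With 1 library per arm there is no test between arms. Intervals between arms are exact 95% intervals of counting error alone, and they do not cover the variation between animals or library preparations. All levels below are UMIs per 10000 UMIs, not corrected for transcript length, so that a gene is compared across libraries and not with another gene.

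The summed level of the 13 mitochondrial members was much lower in anti-PD-1 than in any other library. The summed level of the 90 nuclear members was slightly higher there. The mitochondrial sum was 356.6 UMIs per 10000 in the combination, 397.2 in ATT-I, 226.4 in anti-PD-1 and 394.3 in vehicle. For the nuclear members it was 229.4 in the combination, 225.4 in ATT-I, 253.4 in anti-PD-1 and 214.1 in vehicle. Relative to vehicle, the anti-PD-1 library was low in one sum and high in the other. The anti-PD-1 library differed from vehicle by a log2 ratio of -0.80 (interval -0.81 to -0.79) for the mitochondrial sum and 0.24 (0.23 to 0.25) for the nuclear sum. ATT-I differed from vehicle by 0.01 and 0.07, and the combination differed from vehicle by -0.14 and 0.10, for the mitochondrial and nuclear sums. The combination stood above anti-PD-1 by 0.66 on the mitochondrial sum and below it by a log2 ratio of -0.14 on the nuclear sum. The combination differed from ATT-I by -0.16 on the mitochondrial sum and by 0.03 on the nuclear sum. The small differences changed with the cells used, for a cause that was not tested. In cells of 8000 to 16000 UMIs, ATT-I differed from vehicle by -0.025 and 0.24, and the combination from vehicle by -0.017 and 0.036. The values of the combination against ATT-I change direction there, given further on.

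Set against each other, the 2 genomes gave 1.55 mitochondrial UMIs per nuclear UMI in the combination, 1.76 in ATT-I, 0.893 in anti-PD-1 and 1.84 in vehicle. A low ratio in the anti-PD-1 library recurred in each complex with subunits from both genomes. In complex I it was 1.08 in the combination, 0.924 in ATT-I, 0.503 in anti-PD-1 and 1.06 in vehicle. In complex IV it was 2.91, 3.43, 1.75 and 3.55 in the same libraries. The ratios of complexes III and V were 0.648 and 0.632 in anti-PD-1, against 1.31 for both in vehicle.

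The shift was seen across most cells and not in a few. The median cell held 344.3 mitochondrial UMIs per 10000 in the combination, 378.0 in ATT-I, 208.4 in anti-PD-1 and 387.5 in vehicle. Of the cells, 86.1% in anti-PD-1 lay below the lower quartile of the vehicle cells (302.8 UMIs per 10000), against 30.7% in the combination and 24.2% in ATT-I. The mitochondrial sum exceeded the nuclear sum in 92.5% of combination cells (exact binomial interval 87.9 to 95.7), 92.3% of ATT-I cells (88.6 to 95.03), 32.9% of anti-PD-1 cells (32.1 to 33.7) and 94.8% of vehicle cells (90.1 to 97.7). No cell in any library had 10% or more of its UMIs from these 13 genes, and the highest share was 9.96%, in anti-PD-1.

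**Figure D1:**
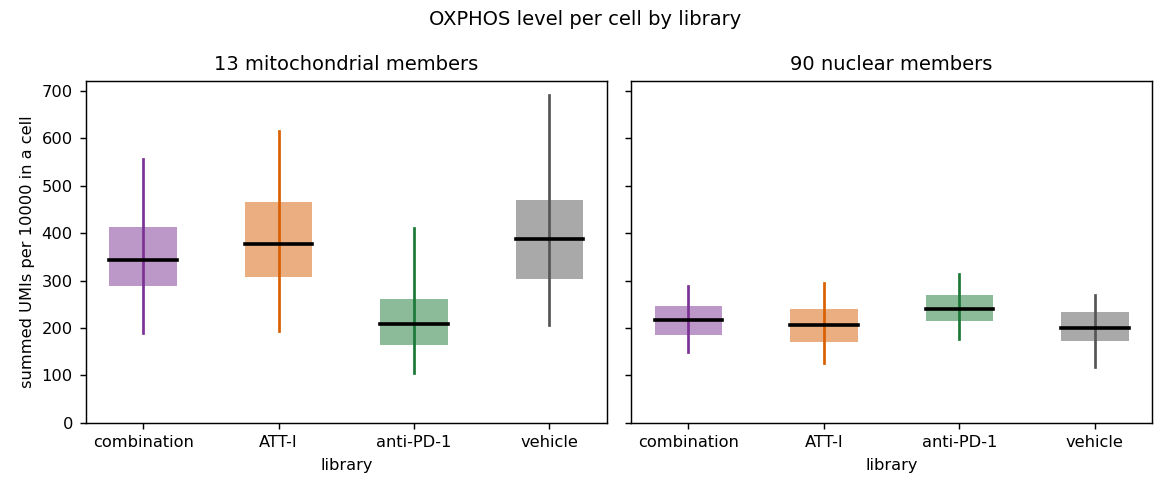
Summed level of the 13 mitochondrial and 90 nuclear members in single cells, in UMIs per 10000, by library. Lines run from the 5th to the 95th percentile of cells, boxes from the lower to the upper quartile, and black bars mark the median, which for the mitochondrial members is 208.4 in anti-PD-1 and 344.3 or more in the other libraries.

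Depth differed between the libraries and moved with the nuclear sum. Across cells, Spearman's rho between the nuclear sum and the cell's UMI total was 0.48 in the combination, 0.48 in ATT-I, 0.47 in anti-PD-1 and 0.39 in vehicle, a description in which both measures share the cell's total. By rank over all cells of a library, the mitochondrial sum hardly followed depth, with rho between -0.05 and 0.13. In cells of 16000 to 32000 UMIs it was 338.0 in the combination, 362.2 in ATT-I, 224.0 in anti-PD-1 and 377.9 in vehicle. Each of these values was below that of the same library in cells of 8000 to 16000 UMIs, given next. In cells of 8000 to 16000 UMIs, a range added after the data were seen, the mitochondrial sum was 395.9 in the combination, 393.8 in ATT-I, 229.1 in anti-PD-1 and 400.7 in vehicle. Nuclear members in those cells summed to 195.3, 224.8, 257.6 and 190.5 in the same libraries. In this depth range the anti-PD-1 difference from vehicle was -0.81 for the mitochondrial and 0.44 for the nuclear sum, and the combination differed from ATT-I by 0.01 and -0.20. Within a cell, the mitochondrial and nuclear sums were nearly unrelated, with Spearman's rho of 0.11 in the combination, -0.05 in ATT-I, -0.08 in anti-PD-1 and 0.04 in vehicle.

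In each gate with values in both libraries, the anti-PD-1 difference kept its direction. The CD8 gate holds cells with more Cd8a and Cd8b1 than Cd4 UMIs, and the CD4 gate the reverse. These cells made up 78.1% and 10.7% of anti-PD-1 cells, against 35.5% and 47.7% of vehicle cells. In the CD8 gate the mitochondrial sum was 226.4 in anti-PD-1 and 398.2 in vehicle, and the nuclear sum was 255.3 in anti-PD-1 and 209.0 in vehicle. In the CD4 gate the mitochondrial sum was 225.0 in anti-PD-1 and 389.6 in vehicle. Cells without a UMI of Mki67, a proliferation marker, had 221.9 in anti-PD-1 and 391.8 in vehicle, and Mki67-positive cells had 231.8 in anti-PD-1 and 394.9 in vehicle. Over the 8 gates with at least 20 cells in both libraries, the log2 ratio of anti-PD-1 to vehicle lay between -0.83 and -0.69 for the mitochondrial sum and between 0.10 and 0.38 for the nuclear sum. Red cell genes summed to 53.8 UMIs per 10000 in ATT-I and to 0.738 or less elsewhere, and natural killer cell markers to 0.0994 in the combination, 1.89 in ATT-I, 0.801 in anti-PD-1 and 4.61 in vehicle. Genes of dissociation stress summed to 62.9 in the combination, 59.6 in ATT-I, 48.8 in anti-PD-1 and 44.9 in vehicle. Hspa8 alone had 27.1, 23.0, 21.2 and 20.2 of these. Between anti-PD-1 and vehicle the stress genes went both ways, with Junb at 10.1 against 5.49 and Hspa1b at 1.85 against 5.57. What part these genes had in the results was not tested.

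Among the single mitochondrial members, 12 of 13 were lower in anti-PD-1 than in vehicle and 0 were higher. A member counts if the libraries differ by at least 1.2-fold and the counting interval excludes 1. Over all genes tested, 42.3% were lower by this rule. The median log2 ratio of the 13 was -0.81, against -0.24 for all genes tested. The 12 members split by size of the difference. For 9 of them, mt-Nd1, mt-Nd2, mt-Nd4 and mt-Nd5 of complex I, mt-Cytb of complex III, mt-Co1, mt-Co2 and mt-Co3 of complex IV and mt-Atp6 of complex V, the ratio lay between -0.91 and -0.54. The catalytic subunit mt-Co1 had 69.7 UMIs per 10000 in the combination, 75.05 in ATT-I, 43.5 in anti-PD-1 and 81.5 in vehicle, a log2 ratio of -0.91 (-0.93 to -0.89) between anti-PD-1 and vehicle.

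The other 3 members differed far more. The complex I subunit mt-Nd3 had 9.57 UMIs per 10000 in the combination, 6.92 in ATT-I, 2.15 in anti-PD-1 and 9.87 in vehicle, a log2 ratio of -2.20 (-2.25 to -2.14) between anti-PD-1 and vehicle. The complex V subunit mt-Atp8 had 1.73 in the combination, 1.56 in ATT-I, 0.541 in anti-PD-1 and 1.80 in vehicle, a ratio of -1.73 (-1.86 to -1.60). The combination and vehicle were close for both genes. The complex I subunit mt-Nd6, the one member on the other strand of the mitochondrial genome, had 1.30 in the combination, 0.316 in ATT-I, 0.262 in anti-PD-1 and 0.919 in vehicle. Here ATT-I was low along with anti-PD-1, with log2 ratios of -1.54 and -1.81 to vehicle. Both libraries also had a lower median depth than the combination and vehicle, and what part depth had was not tested. The counts behind mt-Nd6 were 682 in the combination, 91 in ATT-I, 2844 in anti-PD-1 and 285 in vehicle.

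An exception was mt-Nd4l, a complex I subunit, with 2.55 UMIs per 10000 in the combination, 1.62 in ATT-I, 2.42 in anti-PD-1 and 2.01 in vehicle. Its log2 ratio of anti-PD-1 to vehicle was 0.26 (0.15 to 0.38), just short of 1.2-fold. In the CD8, CD4, Mki67-positive and Mki67-negative cells the ratio was between 0.12 and 0.31. Relative to the median gene it counted as higher in anti-PD-1, the other 12 staying lower. Its neighbour mt-Nd4 had 12.5 in anti-PD-1 and 19.1 in vehicle. These 2 genes share 7 bases, so their reads cannot be fully told apart, and mt-Atp8 shares 43 bases with mt-Atp6. The ends and starts concerned are shown because mt-Nd4l and mt-Atp8 lie there. They are on the plus strand of GRCm38 (mm10) from GENCODE transcripts, at chrM:10114-10173, chrM:10167-10226, chrM:7890-7969 and chrM:7927-8006. The shared bases are in capitals.
mt-Nd4l last 60 bases: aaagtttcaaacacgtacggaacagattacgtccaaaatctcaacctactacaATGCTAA
mt-Nd4 first 60 bases: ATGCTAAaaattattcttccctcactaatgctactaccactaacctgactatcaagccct
mt-Atp8 last 80 bases: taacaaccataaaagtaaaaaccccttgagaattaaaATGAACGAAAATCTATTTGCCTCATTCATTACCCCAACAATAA
mt-Atp6 first 80 bases: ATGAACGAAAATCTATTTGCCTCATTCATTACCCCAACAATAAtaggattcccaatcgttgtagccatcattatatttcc
Also mt-Nd6 overlaps mt-Nd5 by 14 bases on the opposite strand, and whether the counting used strand is not given in the sources used here. The levels of mt-Atp8, mt-Nd4l and mt-Nd6 are therefore uncertain as measures of 1 gene, while mt-Nd3 (chrM:9459-9806) overlaps no other member.

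**Figure D2:**
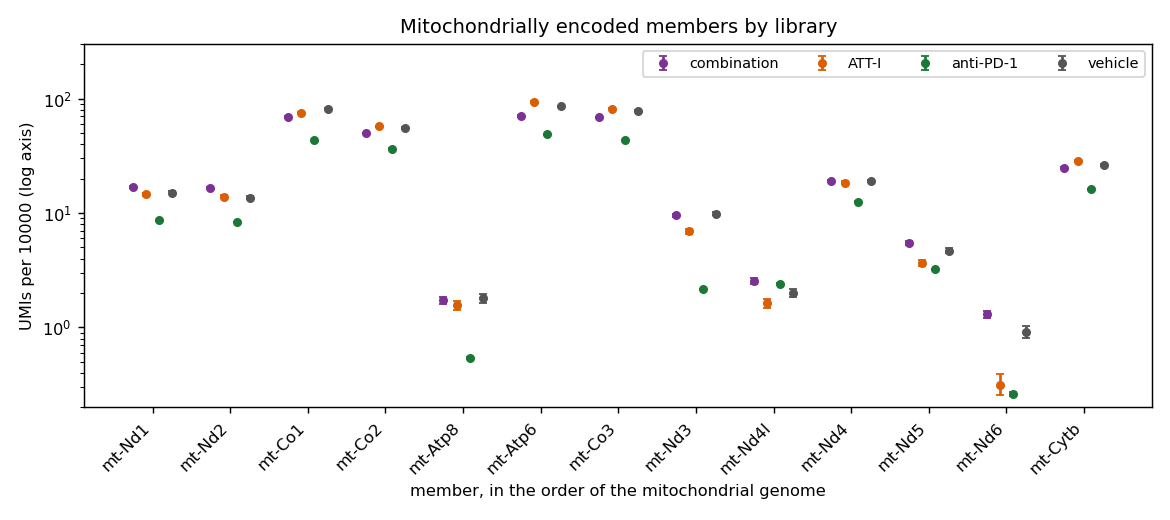
Level of each of the 13 mitochondrial members in UMIs per 10000 on a log axis, by library, with exact 95% counting intervals. The anti-PD-1 library is the lowest for every member but mt-Nd4l, and ATT-I lies near it for mt-Nd6 (0.316 and 0.262).

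Against vehicle, ATT-I had 0 mitochondrial members higher and 4 lower (background 8.06% higher and 33.1% lower), so the lower count was near the background. Those lower were mt-Nd3, mt-Nd4l, mt-Nd5 and mt-Nd6, all of complex I, which holds 7 of the 13 mitochondrial members. Relative to the median gene, 4 of the 13 were higher and 2 lower. The combination had 3 higher and 1 lower than vehicle (background 9.96% and 18.5%). Those higher were mt-Nd2 at 0.29, mt-Nd4l at 0.34 and mt-Nd6 at 0.50 on the log2 scale, and the lower one was mt-Atp6 at -0.29, while relative to the median gene 4 were higher and 0 lower. The combination set against anti-PD-1 had 12 higher and 0 lower (background 37.7% and 22.3%), the largest ratios being 2.32 for mt-Nd6 and 2.16 for mt-Nd3. Set against ATT-I it had 4 higher, all of complex I, and 1 lower, mt-Atp6 (background 31% and 13.1%). The higher count was near the background, and relative to the median gene the counts were 4 and 4. These comparisons share libraries and are not independent of each other.

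Of the 90 nuclear members, 86 passed the filter of a UMI in 10% of the cells of either library for anti-PD-1 against vehicle, and Ndufaf5, Cox6b2, Cox7a1 and Atp5s did not. Of those that passed, 39 were higher and 3 lower in anti-PD-1, against a background of 17.8% higher and 42.3% lower. Their median log2 ratio was 0.25. The background was not matched to the members by level. Vehicle cells were deeper, and a rare gene could pass through vehicle alone, as did Sdhaf3, found in 12.9% of vehicle and 8.36% of anti-PD-1 cells. By complex, 23 of 44 members were higher in complex I, 2 of 8 in complex II, 4 of 8 in complex III, 5 of 11 in complex IV and 5 of 15 in complex V. Relative to the median gene, which was itself lower by 0.24, the counts were 60 higher and 0 lower. Over all 90 nuclear members, 56 had their highest level in anti-PD-1 and 39 their lowest in vehicle.

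The nuclear members with the largest ratios were assembly factors and Cox7a2l. Ndufaf3, an assembly factor of complex I, had 0.352 UMIs per 10000 in the combination, 0.320 in ATT-I, 0.50 in anti-PD-1 and 0.265 in vehicle, a ratio of 0.92 (0.60 to 1.25) of anti-PD-1 to vehicle. Sdhaf4, which helps to mature the complex II flavoprotein, had 0.275, 0.229, 0.414 and 0.235 in those libraries, with a ratio of 0.81 (0.48 to 1.17). Ndufaf3 and Sdhaf4 rested on 82 and 73 UMIs in vehicle. Single UMIs are lost in 21 of 155 vehicle cells and in 37 of 12562 anti-PD-1 cells. Cox7a2l, taken here with complex IV by its symbol, had 2.85 in the combination, 4.56 in ATT-I, 5.14 in anti-PD-1 and 3.03 in vehicle. It was high in both single treatments, with ratios to vehicle of 0.76 (0.67 to 0.86) for anti-PD-1 and 0.59 (0.47 to 0.71) for ATT-I, and not in the combination. The ATT-I and anti-PD-1 libraries also had the lower median depths, 6828 and 7148 UMIs, against 23927 in the combination and 16129 in vehicle. What part depth had was not tested.

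The 3 lower members were Atp5k, a small membrane subunit of ATP synthase, Cox6a1, the widely expressed form of subunit VIa, and Ndufs1, the largest subunit of complex I. Atp5k had 3.85 in the combination, 3.58 in ATT-I, 2.77 in anti-PD-1 and 3.74 in vehicle, a ratio of -0.43 (-0.52 to -0.35) of anti-PD-1 to vehicle. Cox6a1 had 3.46, 2.30, 2.27 and 2.89 in the same libraries and was lower than vehicle in both single treatments, with ratios of -0.35 for anti-PD-1 and -0.33 for ATT-I. Without the cells in which single UMIs are lost, these ratios were -0.15 and -0.12. Ndufs1 had 0.373, 0.340, 0.316 and 0.384, and its ratio of -0.28 had an interval that nearly reached 0. Relative to the median gene none of the 3 passed as lower.

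The abundant subunits did not all move with the nuclear sum. Cox8a, a small subunit of complex IV, had 9.93 UMIs per 10000 in the combination, 10.7 in ATT-I, 12.0 in anti-PD-1 and 9.57 in vehicle. Uqcrh, the hinge protein of complex III, had 6.09, 7.71, 9.43 and 6.08, and Ndufa13 of complex I had 4.27, 4.36, 5.67 and 3.98. These 3 were highest in anti-PD-1 and counted as higher than vehicle. Cox7c was lowest in anti-PD-1, with 9.69 in the combination, 8.05 in ATT-I, 7.67 in anti-PD-1 and 8.36 in vehicle. It did not count as lower than vehicle. Atp5e had 9.93, 9.85, 9.95 and 8.70, and Atp5l had 5.89, 6.54, 6.84 and 5.97, both subunits of ATP synthase. Ndufa4, taken here with complex I by its symbol and now known to sit in complex IV, had 4.11, 3.43, 4.36 and 3.48, and Uqcr10 of complex III had 3.34, 3.33, 2.97 and 3.21. In complex II the iron-sulphur subunit Sdhb had 1.47 in the combination, 1.22 in ATT-I, 1.68 in anti-PD-1 and 1.25 in vehicle and counted as higher in anti-PD-1. Its catalytic partner Sdha had 0.961, 0.966, 0.852 and 1.01 and did not count in either direction.

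Of the paired isoforms, Cox4i1, the general form of subunit IV, had 6.71 in the combination, 7.79 in ATT-I, 10.2 in anti-PD-1 and 7.12 in vehicle. Cox7a1, the muscle form of subunit VIIa, was low, at 0.0210, 0.0174, 0.0211 and 0.0194, while the liver form Cox7a2 had 5.61, 4.03, 4.68 and 4.72. Cox4i2, Cox6a2 and Ndufa4l2 are not among the genes used here.

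ATT-I against vehicle had 6 nuclear members higher and 3 lower of 86, beside 8.06% of all genes higher and 33.1% lower, so the higher count was near the background. Besides Cox7a2l, the higher ones included Uqcrc2, a core subunit of complex III, at 0.45 (0.24 to 0.65), and Sdhaf1, an assembly factor of complex II, at 0.39 (0.08 to 0.69), a value that turned to -0.06 as a mean over cells. The lower ones were Cox6a1, the ATP synthase ring subunit Atp5g3 at -0.33 and the complex II anchor Sdhc at -0.31. Relative to the median gene, 44 were higher and 0 lower. The combination had 5 nuclear members higher and 1 lower of 88 against vehicle (background 9.96% and 18.5%). Among them were Ndufab1, the mitochondrial acyl carrier protein, at 0.48 (0.32 to 0.65), Ndufaf3 at 0.41, and Uqcrb, a complex III subunit, at 0.40, with the complex I flavoprotein Ndufv1 lower at -0.37. Relative to the median gene, 19 were higher and 1 lower. Set against anti-PD-1, the combination had 6 nuclear members higher and 31 lower of 88 (background 37.7% and 22.3%), with Cox6a1 at 0.61, Ndufaf2 at 0.51 and Atp5k at 0.48 at the upper end. Ndufaf1 at -0.94 (-1.42 to -0.50), Sdhaf3 at -0.92 (-1.50 to -0.39) and Cox7a2l at -0.85 (-0.93 to -0.78) stood at the lower end. Ndufaf1 and Sdhaf3 rested on 42 and 29 UMIs in the combination, against 1492 for Cox7a2l. Single UMIs are lost in 37 of 199 combination cells and in 37 of 12562 anti-PD-1 cells. Relative to the median gene, 3 nuclear members were higher and 47 lower. Set against ATT-I it had 12 higher and 6 lower (background 31% and 13.1%), from Cox6a1 at 0.59, Cox7a2 at 0.48 and Ndufaf2 at 0.46 to Cox7a2l at -0.68, Ndufa6 at -0.52 and Sdhaf1 at -0.41. Relative to the median gene, which was higher by 0.15 in the combination, 3 were higher and 21 lower.

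**Figure D3:**
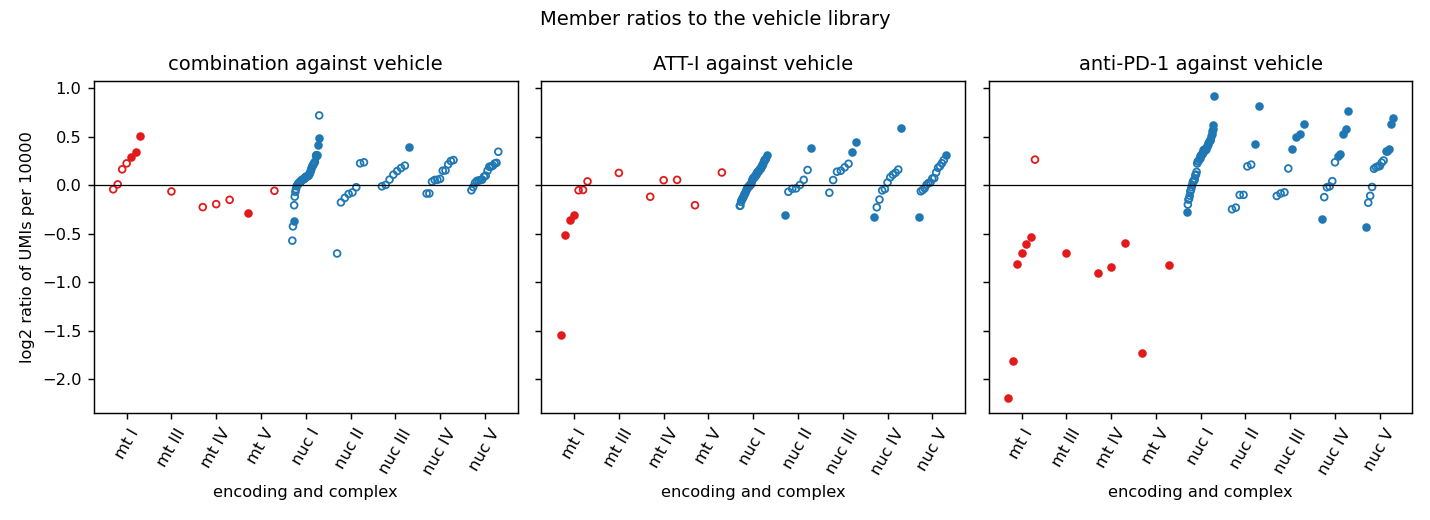
Log2 ratio of each member's level to vehicle in the combination, ATT-I and anti-PD-1 libraries, by encoding (mt, mitochondrial, in red; nuc, nuclear, in blue) and complex. Filled points differ by 1.2-fold with a counting interval that excludes 1, as do 12 mitochondrial members on the lower side and 39 nuclear members on the higher side in anti-PD-1.

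The other gene lists tied to mitochondria were read the same way, beside 17.8% of all genes higher and 42.3% lower in anti-PD-1 than in vehicle. Of 77 mitochondrial ribosomal protein genes that passed, 39 were higher and 1 lower in anti-PD-1 than in vehicle, with a median log2 ratio of 0.30, while 15 were higher and 0 lower in the combination (background 9.96% and 18.5%) and 10 higher and 1 lower in ATT-I (background 8.06% and 33.1%). Of 14 genes for mitochondrial DNA upkeep and expression, 0 were higher and 7 lower in anti-PD-1, with a median of -0.38, a lower share near that of all genes. Tricarboxylic acid cycle genes gave 2 higher and 5 lower of 13 in anti-PD-1, with a median of -0.21, again near the background. Nuclear regulators of mitochondrial genes gave 1 higher and 4 lower of 7, with a median of -0.56. Carriers and assembly factors outside the symbol rule gave 10 higher and 5 lower of 23. The median of all genes tested was -0.24, and the medians of the tricarboxylic acid cycle, upkeep and regulator lists lay near or below it.

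Promoters of 75 of the 90 nuclear members were found in RefSeq tables (GRCm38.p6), each window running from 250 bases before to 50 after a gene's start, with 80 windows in all. Motifs were searched on both strands. The NRF1 motif (GCGCA, any base, then GCGC) was present in 26.2% of member windows, against 9.61% of windows of the genes in the table and 4.60% of all windows. The ETS motif CCGGAAG was present in 26.2%, against 17.3% and 8.86%, and the YY1 motif AAGATGGC in 12.5%, against 4.37% and 2.75%. The ERR motif TCAAGGTCA was present in 2.5%, against 0.271% and 0.423%. The GC box GGGCGG went the other way beside the genes in the table, in 46.2% of member windows, against 61.0% and 35.7%, and CCAAT was in 42.5%, against 37.7% and 37.4%. Members with and without the NRF1 motif had median anti-PD-1 to vehicle log2 ratios of 0.22 and 0.27. The promoters of 4 members whose levels stood apart are shown on the minus strand, with matches to the NRF1, ETS, YY1 or ERR letters in capitals. Cox7a2l holds no match to these 4, Sdhaf1 holds an ETS match, Atp5k an NRF1 and an ETS match, and Cox6a1 2 NRF1 matches and an ETS match.
Cox7a2l promoter, chr17:83514284-83514583: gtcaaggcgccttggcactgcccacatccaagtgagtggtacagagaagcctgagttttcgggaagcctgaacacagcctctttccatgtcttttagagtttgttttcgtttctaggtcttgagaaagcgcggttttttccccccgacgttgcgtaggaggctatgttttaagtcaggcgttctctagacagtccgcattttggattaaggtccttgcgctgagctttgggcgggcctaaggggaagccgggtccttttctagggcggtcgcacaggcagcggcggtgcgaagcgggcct
Sdhaf1 promoter, chr7:30322326-30322625: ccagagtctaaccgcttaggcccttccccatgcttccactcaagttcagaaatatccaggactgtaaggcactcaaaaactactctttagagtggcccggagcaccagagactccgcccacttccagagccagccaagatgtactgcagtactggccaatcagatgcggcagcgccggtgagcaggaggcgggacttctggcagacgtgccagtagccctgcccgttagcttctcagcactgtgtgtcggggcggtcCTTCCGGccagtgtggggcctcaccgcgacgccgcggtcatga
Atp5k promoter, chr5:108434350-108434649: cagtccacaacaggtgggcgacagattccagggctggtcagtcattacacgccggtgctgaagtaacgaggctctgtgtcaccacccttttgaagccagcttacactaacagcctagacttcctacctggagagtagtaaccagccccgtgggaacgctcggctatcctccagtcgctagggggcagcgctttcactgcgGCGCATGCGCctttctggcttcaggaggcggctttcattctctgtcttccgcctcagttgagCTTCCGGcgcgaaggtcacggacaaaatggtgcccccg
Cox6a1 promoter, chr5:115348909-115349208: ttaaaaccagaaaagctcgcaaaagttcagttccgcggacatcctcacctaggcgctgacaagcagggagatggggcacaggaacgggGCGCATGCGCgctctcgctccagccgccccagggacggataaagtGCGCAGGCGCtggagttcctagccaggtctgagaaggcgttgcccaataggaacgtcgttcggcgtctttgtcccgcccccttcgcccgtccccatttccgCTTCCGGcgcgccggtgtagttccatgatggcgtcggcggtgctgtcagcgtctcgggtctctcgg
No match overlaps another in these windows, and a match says only that the letters are present.

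Differences between gates were tested within libraries, with the 4 libraries as blocks, by limma on log2 of summed UMIs per 10000 plus 0.1, with Benjamini-Hochberg adjustment over all genes. Gates are read from UMIs, so a cell without a UMI may still express the gene, and the positive side of each gate, and the CD8 gate beside the CD4 gate, held the deeper cells in all 4 libraries. In the CD4 gate of anti-PD-1, 18.4% of cells had a Cd8a UMI, and in its CD8 gate 9.90% had a Foxp3 UMI.

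Mki67-positive cells had higher levels of many nuclear members than Mki67-negative cells, but no nuclear member was called higher in cells of 8000 to 16000 UMIs. Of 84 nuclear members tested, 21 rose and 1 fell in Mki67-positive cells, against a background of 11.6% higher and 4.05% lower. Of 13 mitochondrial members only mt-Cytb rose, by 0.19 (adjusted p = 0.0461). That call was lost with a pseudocount of 0.5, with no filter on low genes, with gates at 2000 UMIs, in cells of 8000 to 16000 UMIs, and without vehicle, anti-PD-1 or ATT-I. ATP synthase gave 8 of 15 higher, complex IV 6 of 11, complex II 2 of 7, complex III 2 of 8 and complex I 3 of 43, and the 9 assembly factors tested gave 0. The nuclear sum was higher in Mki67-positive cells in all 4 libraries, at 233.2 against 202.3 in the combination, 245.5 against 205.8 in ATT-I, 266.8 against 242.2 in anti-PD-1 and 218.6 against 197.2 in vehicle. The median UMI totals of these cells were 27755 against 11835.5 in the combination, 15323.5 against 5484 in ATT-I, 10808.5 against 6270 in anti-PD-1 and 21837.5 against 8105 in vehicle. Other markers moved with this gate: of 12 dissociation and stress genes 1 rose and 6 fell (median -0.43), of 4 natural killer markers 2 fell (median -1.38), and Cd4 fell by 1.07. The CD8 markers had a median of 1.03 and did not pass. What part these had in the members' differences was not tested.

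In cells of 8000 to 16000 UMIs the log2 ratio of the nuclear sum was -0.04 in the combination, 0.04 in ATT-I, 0.04 in anti-PD-1 and -0.06 in vehicle, and 0 of 84 nuclear members were called higher. The positive side was still deeper in this range, with median UMI totals of 13120 against 11016.5 in the combination and 12515 against 9416 in ATT-I. In anti-PD-1 they were 11475 against 9913, and in vehicle 12142 against 8681. Only 15 combination cells were Mki67-positive and 13 vehicle cells Mki67-negative, so a lack of calls does not show that there is no difference. Calls over all genes were also fewer there, at 286 of 7672 genes in either direction, against 1162 of 7425 in all cells. The median log2 difference of the nuclear members was -0.02 there, against 0.20 in all cells, although 18 of the 21 members that rose in all cells stayed above 0. With gates read at 2000 UMIs per cell, 5 nuclear members rose and 1093 of 7370 genes were called. Without the ATT-I library 4 rose, and without the anti-PD-1 library 8.

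The members with the largest differences were Ndufb8, an accessory subunit of complex I, Atp5o.1, and Ndufa4. Atp5o is the stalk protein of ATP synthase, and the row is listed with a suffix that no table used here pairs with a gene ID. Ndufb8 had 2.02 UMIs per 10000 in Mki67-positive against 1.47 in Mki67-negative cells of the combination, 2.04 against 1.13 in ATT-I, 2.26 against 1.73 in anti-PD-1 and 1.99 against 1.22 in vehicle. Its log2 difference was 0.57 ± 0.10 (SE, limma, adjusted p = 0.00654). Atp5o.1 differed by 0.56 ± 0.09 (limma, adjusted p = 0.00291) and Ndufa4 by 0.50 ± 0.10 (limma, adjusted p = 0.00994). All 3 were higher in the Mki67-positive cells of 4 of 4 libraries, and none of the 3 passed in cells of 8000 to 16000 UMIs. The calls of Ndufb8 and Atp5o.1 held in 9 of 10 alternatives and that of Ndufa4 in 6 of 10. The Ndufa4 call was also lost with no filter on low genes, without ATT-I and with gates at 2000 UMIs, and its lowest log2 difference was 0.06. Ndufa6, an accessory subunit of complex I, was the one nuclear member that fell, by 0.32 on the log2 scale (limma, adjusted p = 0.0365), and it was lower in the Mki67-positive cells of each library. The call held in 5 of 10 alternatives and was lost without anti-PD-1, ATT-I or the combination, with gates at 2000 UMIs and in cells of 8000 to 16000 UMIs.

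**Figure D4:**
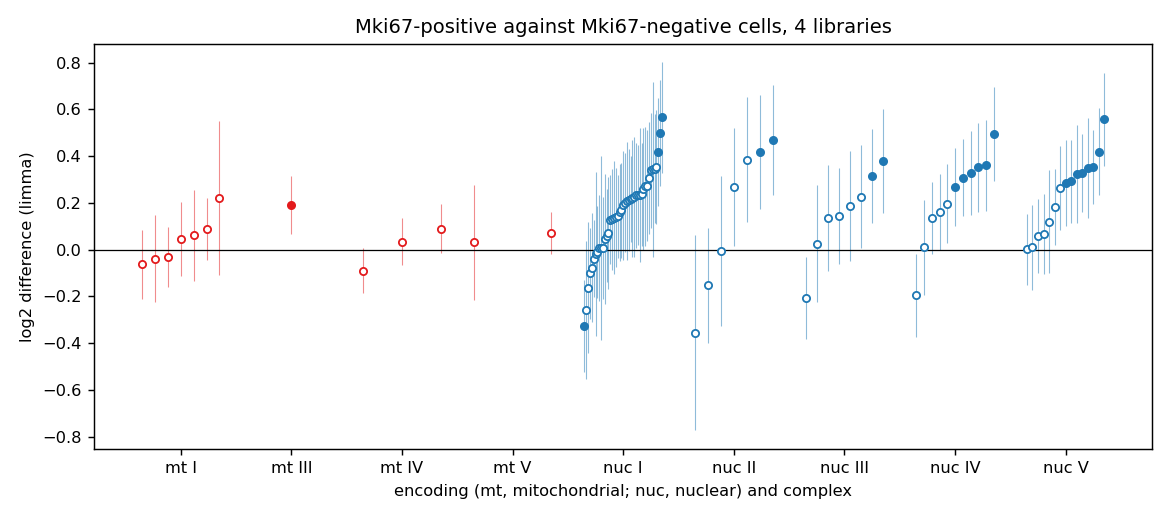
Log2 difference of each member between Mki67-positive and Mki67-negative cells (limma over 4 libraries, with 95% intervals), by encoding and complex. Filled points passed an adjusted p of 0.05, as did 21 nuclear members above 0, Ndufa6 below 0 and mt-Cytb.

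Among the other lists, 8 of 75 mitochondrial ribosomal genes rose and 0 fell in Mki67-positive cells, near the background of 11.6% higher. They ran from Mrpl18 at 1.02 (limma, adjusted p = 0.000523) to Mrpl36 at -0.21, which did not pass. Of 13 tricarboxylic acid cycle genes 2 rose, the fumarase gene Fh1 by 0.71 (limma, adjusted p = 0.00343), while Suclg1 at -0.03 did not pass. Of 11 mitochondrial DNA expression genes 1 rose, the mitochondrial DNA packaging factor Tfam by 0.50, and Lrpprc at -0.34 did not pass. Of 5 nuclear regulators Nrf1 rose by 0.42 and Myc had -0.05. Of 21 carriers and assembly factors outside the symbol rule, the complex III cytochrome Cyc1 rose by 0.39 and Ttc19 fell by 0.54.

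Cells of the CD8 gate differed from those of the CD4 gate in few members. Of 84 nuclear members, 2 were higher and 2 lower (background 7.8% higher and 13.6% lower), and of 13 mitochondrial members 0 passed, with 4 at an unadjusted p under 0.05. The largest difference was in Sdhaf1, which had 0.361 UMIs per 10000 in the CD8 gate against 0.995 in the CD4 gate of the combination, 0.402 against 1.09 in ATT-I, 0.414 against 0.963 in anti-PD-1 and 0.427 against 0.855 in vehicle. It was lower in the CD8 gate of all 4 libraries without overlap, and fell by 1.10 ± 0.10 on the log2 scale (SE, limma, adjusted p = 6.2e-05). The call held in 10 of 12 alternatives and was lost in Mki67-negative cells alone and in cells of 8000 to 16000 UMIs, where 3 libraries remained. The log2 difference stayed between -1.24 and -0.71 in all 12. The complex I subunit Ndufv3 fell by 0.34 (limma, adjusted p = 0.0164) and was lower in the CD8 gate of each library, a call that held in 7 of 12 alternatives. It was lost without vehicle, without the combination, in Mki67-negative cells alone, with gates at 2000 UMIs and in cells of 8000 to 16000 UMIs.

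The complex IV subunits Cox8a and Cox5b rose by 0.26 and 0.22 in the CD8 gate (limma, adjusted p = 0.0240 and 0.0476), and each was higher in 4 of 4 libraries. Both calls were lost without vehicle, without anti-PD-1 and without the combination, that of Cox5b also without ATT-I, and the Cox8a difference was -0.04 in cells of 8000 to 16000 UMIs. The mitochondrial sum in the CD8 gate was 360.5 against 343.1 in the CD4 gate of the combination, 389.1 against 403.4 in ATT-I, 226.4 against 225.0 in anti-PD-1 and 398.2 against 389.6 in vehicle. These differences were small beside that between anti-PD-1 and the other libraries. Of 12 dissociation and stress genes 3 fell in the CD8 gate (median -0.29), and both natural killer markers tested rose (median 1.34), with a part in the members' differences that was not tested. Among the other lists, Myc rose by 0.74, Mrpl12 by 0.37 and Ssbp1 by 0.28 in the CD8 gate, while Cox14 fell by 0.44 and Mrps6 by 0.55 (limma, adjusted p between 0.0129 and 0.0437). Tricarboxylic acid cycle genes gave 0 of 13, with Suclg2 at 0.14 and Dld at -0.17.

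In the CD4 gate, cells with a UMI of Foxp3, the master regulator of regulatory T cells, had a lower mitochondrial sum than Foxp3-negative cells in 3 of 4 libraries. The sums were 322.1 in Foxp3-positive against 366.4 in Foxp3-negative cells of the combination, 347.6 against 421.3 in ATT-I, 204.3 against 235.5 in anti-PD-1 and 407.2 against 378.8 in vehicle. Only 19 vehicle and 18 ATT-I cells were Foxp3-positive. No single mitochondrial member passed the limma test, with 0 called by adjusted p and 2 of 13 at an unadjusted p under 0.05, although all 13 fitted differences were below 0. Without the anti-PD-1 library 1 member fell.

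Of 84 nuclear members, 1 rose and 1 fell in Foxp3-positive cells (background 3.45% and 4.77%). Sdhb had 1.93 in Foxp3-positive against 1.2 in Foxp3-negative cells of the combination, 1.69 against 1.09 in ATT-I, 2.01 against 1.5 in anti-PD-1 and 1.67 against 0.85 in vehicle. It was higher in all 4 libraries, by 0.63 ± 0.14 on the log2 scale (SE, limma, adjusted p = 0.0106). Ndufa6 fell by 0.48 ± 0.14 (SE, limma, adjusted p = 0.0405), with lower levels in 4 of 4 libraries. Both calls were lost without vehicle and without the combination, and that of Ndufa6 also without ATT-I. In the same cells, of 12 dissociation and stress genes 1 rose and 5 fell (median -0.60), and 3 of 5 T cell markers fell (median -0.49). Their part in the members' differences was not tested. Among the other lists the electron carrier cytochrome c, Cycs, rose by 0.59, Myc by 0.77 and Mrpl3 by 0.72 (limma, adjusted p between 0.0380 and 0.0447).

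**Figure D5:**
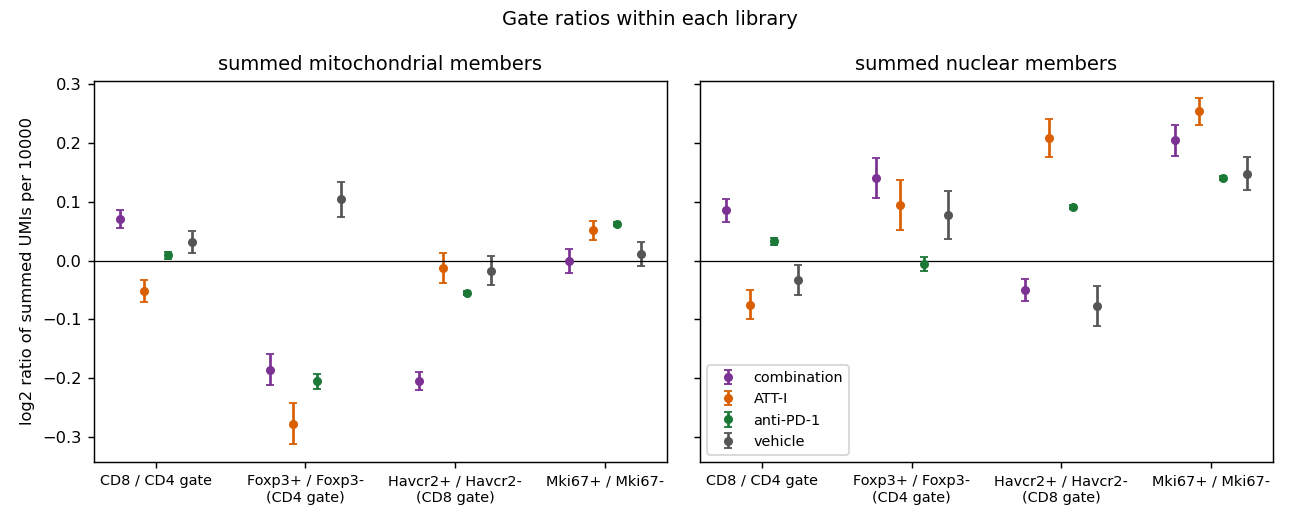
Log2 ratio of the summed mitochondrial (left) and nuclear (right) members between the sides of each gate within each library, with exact 95% counting intervals. The nuclear sum is higher in Mki67-positive cells in all 4 libraries, and the mitochondrial sum is lower in Foxp3-positive cells of every library but vehicle.

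Havcr2 is an inhibitory receptor found on exhausted T cells. In the CD8 gate, the limma test called no member between cells with and without a UMI of Havcr2. Only 20 vehicle and 25 ATT-I cells were Havcr2-positive. In counts simulated for the Mki67 gate the fit recovered 43% of genes changed 1.5-fold, and the Havcr2 gate was not simulated. A lack of calls therefore does not show that there is no difference. Of 85 nuclear and 13 mitochondrial members 0 were called (background 0.398% higher and 0.425% lower), with 4 nuclear and 1 mitochondrial member at an unadjusted p under 0.05. The mitochondrial sum was 334.9 in Havcr2-positive against 386.2 in Havcr2-negative cells of the combination, 386.8 against 390.3 in ATT-I, 221.7 against 230.4 in anti-PD-1 and 395.5 against 400.1 in vehicle. It was lower on the Havcr2-positive side of each library, with intervals beyond 0 in the combination and anti-PD-1. The nuclear sum was 229.8 against 237.9 in the combination, 246.0 against 212.9 in ATT-I, 264.1 against 247.9 in anti-PD-1 and 202.4 against 213.5 in vehicle, so that its direction differed between libraries. Of the other lists 0 genes passed, and Idh3a of the tricarboxylic acid cycle had the highest value there at 0.42 (limma, adjusted p = 0.192).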

How the data were processed

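Droplet single-cell RNA was measured in 4 libraries, 1 per arm, each a pool of 5 tumours. The authors' deposited table is on a natural log scale, made, per the submitters' processing notes, with Cell Ranger and Seurat on build mm10, without versions, filters or counting settings. From the values, each is the natural log of 1 plus UMIs per 10000 of the cell, lowered by a constant per library (0.225 in the combination, 0.153 in ATT-I, 0.249 in anti-PD-1 and 0.247 in vehicle) and set to 0 below it. With that constant 100% of non-zero values lay within 0.02 of a whole UMI, and summed UMIs were used. In 37 combination, 0 ATT-I, 37 anti-PD-1 and 21 vehicle cells the lowest value exceeded 1 UMI, so single UMIs are lost there. Listed genes held between 98.3% and 99.9% of the cells' totals. No cell was removed and doublets were not called.

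Arms were compared by ratios of summed UMIs per 10000 with exact conditional 95% intervals, for counting error only, over genes with a UMI in 10% of cells of either library. Gates with at least 10 cells a side were fitted with limma 3.58.1 in R 4.3.3 on log2 values with a pseudocount of 0.1, for genes with a mean level of at least 0.1, at an adjusted p of 0.05. The number of libraries is 4, and they differ in treatment. With the library as a block, gate p-values measure how the gate difference varies over these libraries. The sums had equal weight whatever their number of cells. Scripts used Python 3.11.15 with numpy 2.4.6 and scipy 1.17.1, and were tested on simulated counts. The genes named are every mitochondrial member, the 2 highest nuclear members of each complex, the 3 highest and 3 lowest called members of each comparison, isoform pairs, and the highest and lowest gene of each other list in a gate. Members, lists and rules were chosen with earlier results of these data known. How reads shared with processed pseudogenes of nuclear members were counted is not given in the sources used here. Of the cell type lists, B cell markers were at 0.00695 UMIs per 10000 or less, monocyte or macrophage markers at 0.288 or less and fibroblast markers at 0.406 or less.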

Additional observations from a re-analysis of the deposited data

Results flagged for a closer look

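Gate differences of the summed levels went in opposite directions in different libraries in 4 cases, each with counting intervals beyond 0 on both sides. The difference between libraries was not tested, since each arm has 1 library. For the mitochondrial sum of Foxp3-positive against Foxp3-negative cells, vehicle was above 0 by 0.10 and the combination, ATT-I and anti-PD-1 were at -0.19, -0.28 and -0.21, so that the highest and lowest libraries lay 0.38 apart on the log2 scale. For the nuclear sum of Havcr2-positive against Havcr2-negative cells, ATT-I and anti-PD-1 were at 0.21 and 0.09 and the combination and vehicle at -0.05 and -0.08, a spread of 0.29. For the CD8 against the CD4 gate the nuclear sum was at 0.09 in the combination, -0.07 in ATT-I, 0.03 in anti-PD-1 and -0.03 in vehicle, a spread of 0.16. The mitochondrial sum of that contrast was at 0.07, -0.05, 0.01 and 0.03 in the same libraries, a spread of 0.12.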

How the results depend on the processing

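No paired analysis was possible because each arm has 1 library, and the gate fits already hold the library as a block. For the log2 ratios to vehicle or between treated libraries, given as mitochondrial then nuclear sum, a mean over cells gave -0.81 and 0.27 for anti-PD-1 against vehicle, -0.025 and 0.041 for ATT-I against vehicle, -0.17 and 0.12 for the combination against vehicle, 0.64 and -0.15 against anti-PD-1, and a nuclear 0.078 against ATT-I. A denominator without mitochondrial UMIs gave -0.83 and 0.22 for anti-PD-1 against vehicle and, for the combination set against anti-PD-1, 0.67 and -0.12. Without the deepest cells, in which single UMIs are lost, the values were -0.78 and 0.32 for anti-PD-1, 0.031 and 0.16 for ATT-I, and a mitochondrial -0.18 for the combination against vehicle, while the combination gave 0.60 and -0.23 against anti-PD-1 and -0.21 and -0.061 against ATT-I. In cells of 8000 to 16000 UMIs, chosen after seeing the data, the nuclear value was 0.44 for anti-PD-1, the pair was -0.025 and 0.24 for ATT-I and -0.017 and 0.036 for the combination against vehicle, while the combination gave 0.79 and -0.40 against anti-PD-1 and 0.0078 and -0.20 against ATT-I. The nuclear sum of the combination against ATT-I thus reversed in both, and the mitochondrial sum in the second; the cause was not tested.

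Relative to the median gene, members higher and lower than vehicle became 1 mitochondrial higher, 60 nuclear higher and 0 nuclear lower in anti-PD-1; 4 and 2 mitochondrial and 44 and 0 nuclear in ATT-I; 0 mitochondrial lower and 19 nuclear higher in the combination. The combination then had 3 nuclear higher and 47 lower than anti-PD-1, and 4 mitochondrial lower, 3 nuclear higher and 21 nuclear lower than ATT-I. By fold alone the combination had 9 nuclear higher and 4 lower than vehicle, and 2 lower with any UMI in both libraries.

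For Mki67, nuclear members higher numbered 10 with no filter, 5 with gates at 2000 UMIs and 0 at 8000 to 16000 UMIs, and from 4 to 16 with a library left out; those lower were 0 at 8000 to 16000 UMIs and 0 to 1 with a library left out. The mitochondrial call went to 0 with a pseudocount of 0.5, with no filter, at both depth settings, and 0 to 1 with a library left out. For the CD8 against the CD4 gate, nuclear members higher were 1 with a pseudocount of 0.5, 0 with no filter, in Mki67-negative cells and at 8000 to 16000 UMIs, 4 with gates at 2000 UMIs and 0 to 1 with a library left out. Those lower were 0 in Mki67-negative cells and at 8000 to 16000 UMIs, 1 with gates at 2000 UMIs and 1 to 2 with a library left out, and strict gates gave 1 mitochondrial member higher. For Foxp3, nuclear members higher were 0 with no filter and 0 to 1 with a library left out, those lower were 0 with a pseudocount of 0.02, no filter or strict gates and 0 to 1 with a library left out, and mitochondrial members lower 0 to 1. For Havcr2 every count stayed at 0 in the alternatives run. Mki67-negative cells, gates at 2000 UMIs and the 8000 to 16000 range left 1 library for Foxp3 and Havcr2 and were not run.

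Of the named members, Cox8a between the CD8 and CD4 gates reversed to -0.043 at 8000 to 16000 UMIs, and Sdhaf1 in ATT-I against vehicle to -0.062 as a mean over cells. Among the values of named members in the gates, 65 kept their side of the threshold, 40 no longer passed and 1 reversed. Vehicle, with 155 cells, limits the counting precision of the rarest members.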
